A study of Mus musculus with 124 samples.

Results

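The collagen chain genes were taken here as all genes whose name starts with Col followed by a number, the letter a and a further number, in the cortex and liver tables of a mouse sleep deprivation study. The rule found 44 of 17108 named genes in cortex and 29 of 13338 in liver, and all 29 liver genes were among the 44. In each tissue 1 of them, Col4a3bp, encodes a ceramide transfer protein and not a collagen, which leaves 43 chains in cortex and 28 in liver. Of 45 protein-coding genes in the annotation with such a name, Col10a1 alone was in neither table.

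Cortex and liver of the same 62 mice were measured by RNA sequencing, with 1 library per tissue and mouse. The mice were 11 to 12 weeks old, lived under 12 h of light and 12 h of dark, ate freely, and were anaesthetised with isoflurane before they were killed. Strain and sex are not given in the sources used here. Time of day is written as ZT, the hours since lights came on. The 26 undisturbed controls comprised 8 mice at ZT0, 3 at ZT3, and 5 each at ZT6, ZT12 and ZT18. Gentle handling from light onset held the 36 deprived mice awake for up to 6 h, and 3 were collected at each of 12 times, written as T with the hours of the study clock. T27 lay 3 h into deprivation (ZT3) and T30 at its end (ZT6). T36, T42 and T48 came 6, 12 and 18 h after the end (ZT12, ZT18 and ZT0). T54 (ZT6), T60 (ZT12), T66 (ZT18), T72 (ZT0) and T78 (ZT6) came 24, 30, 36, 42 and 48 h after it, and T192 (ZT0) and T198 (ZT6) 162 and 168 h after it. Each deprived group was compared with the controls of its own time of day. The labels place 40 mice in batch 1 and 22 in batch 2. T60, T66, T192 and T198 were wholly in batch 2, the other deprived groups and the ZT3 controls wholly in batch 1, and the other control groups were in both.

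Collagens are triple helices of 3 chains, built from a short repeat that begins with glycine. Fibril-forming chains (types I, II, III, V, XI, XXIV and XXVII) make the ropes of connective tissue, and type IV makes the sheet of basement membranes, which in brain wraps every capillary and underlies the meninges. Type VI makes beaded filaments, the multiplexins (types XV and XVIII) sit at basement membranes, fibril-associated chains decorate fibrils, and a small group spans the cell membrane. In brain the fibril-forming type I and III chains come chiefly from fibroblasts of the meninges and around vessels, and in liver from stellate cells and portal fibroblasts.

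Values are log2 CPM as deposited, where CPM is a gene's reads scaled to a common library size, and a difference is deprived minus control in log2. A gene passed the test, or was called, where limma gave an adjusted p under 0.05 over all genes of that tissue. The tissues met their labels: the 8 neuronal markers summed to between 7799 and 9453 CPM in cortex libraries, and the 8 hepatocyte markers to between 93677 and 131312 CPM in liver libraries. In bulk samples such as these, fewer cells of a type and less RNA per cell cannot be told apart.

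Col4a1 and Col4a2, whose products form the common basement membrane helix, were called higher at more deprived times in cortex than any other member, and the genes lie head to head on chromosome 8 of GRCm38. Col4a1 (chr8:11198423-11312826) is read from the minus strand and Col4a2 (chr8:11312805-11449287) from the plus strand. Their first exons share 22 bases. The stretch chr8:11312801-11312830 is shown on the plus strand because it holds both RefSeq starts, with the 22 shared bases in capitals.
Col4a1 and Col4a2 starts: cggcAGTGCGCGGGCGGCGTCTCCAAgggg
Of the other members with calls in cortex, Col20a1 (chr2:180986535-181018363, plus strand), Col25a1 (chr3:130131501-130599877, plus), Col15a1 (chr4:47208161-47313167, plus), Col8a1 (chr16:57624258-57754737, minus) and Col27a1 (chr4:63214004-63334991, plus) were called at T27, T30 or T36. Their calls did not all fall at the same times, and Col8a1 was called lower and the others higher. The 250 bases before their RefSeq starts (GRCm38.p6) are shown so that they can be read side by side. Capitals mark matches to the CCAAT box or to the GC box GGGCGG on either strand. The TATA box (TATAAA) and the E-box CACGTG were searched too.
Col20a1, chr2:180986285-180986534, plus strand: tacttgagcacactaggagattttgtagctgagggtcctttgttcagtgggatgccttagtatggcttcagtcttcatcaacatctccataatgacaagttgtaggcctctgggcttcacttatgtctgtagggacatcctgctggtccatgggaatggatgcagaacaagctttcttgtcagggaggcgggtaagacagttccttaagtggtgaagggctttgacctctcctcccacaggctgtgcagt
Col25a1, chr3:130180595-130180844, plus strand: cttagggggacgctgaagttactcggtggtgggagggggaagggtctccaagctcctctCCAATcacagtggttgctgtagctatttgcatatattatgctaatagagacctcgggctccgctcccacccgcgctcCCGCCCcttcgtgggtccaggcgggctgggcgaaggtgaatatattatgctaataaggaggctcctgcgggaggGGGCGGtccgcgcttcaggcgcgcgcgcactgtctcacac
Col15a1, chr4:47207762-47208011, plus strand: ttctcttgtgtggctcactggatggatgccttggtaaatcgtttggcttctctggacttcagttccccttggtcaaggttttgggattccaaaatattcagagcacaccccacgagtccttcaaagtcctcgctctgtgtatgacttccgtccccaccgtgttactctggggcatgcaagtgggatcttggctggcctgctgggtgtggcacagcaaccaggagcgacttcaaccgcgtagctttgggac
Col8a1, chr16:57754738-57754987, minus strand: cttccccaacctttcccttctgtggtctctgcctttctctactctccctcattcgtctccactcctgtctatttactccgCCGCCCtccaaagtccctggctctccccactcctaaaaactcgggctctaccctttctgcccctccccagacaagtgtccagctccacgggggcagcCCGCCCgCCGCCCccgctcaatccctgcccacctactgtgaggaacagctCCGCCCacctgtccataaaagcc
Col27a1, chr4:63215162-63215411, plus strand: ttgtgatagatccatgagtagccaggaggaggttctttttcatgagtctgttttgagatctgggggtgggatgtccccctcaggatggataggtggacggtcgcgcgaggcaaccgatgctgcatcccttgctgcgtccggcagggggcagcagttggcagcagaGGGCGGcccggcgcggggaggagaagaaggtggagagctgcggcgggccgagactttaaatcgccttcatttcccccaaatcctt
The Col8a1 window held 4 matches, the Col25a1 window 3 and the Col27a1 window 1, and the Col20a1 and Col15a1 windows held 0. The Col25a1 and Col27a1 windows lie inside the gene positions given above, so the RefSeq starts of these genes are downstream of the annotated ones. RefSeq gave such a window for 34 of the 44 members. On either strand the TATA box was in 4 of the 34, CCAAT in 12, the GC box in 21 and the E-box in 0. Of 32851 windows of the same length from all genes, 12.4% held the TATA box, 33.8% CCAAT, 32.7% the GC box and 6.02% the E-box. A match describes letters only and is not a binding site. Besides Col4a1 and Col4a2, Col4a4 and Col4a3 on chromosome 1 and Col4a6 and Col4a5 on chromosome X start head to head, 72 and 1309 bases apart.

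Length-scaled levels in control mice show which chains each tissue makes most of. In cortex Col4a2 (11.8 CPM per kb of exon), the type VI chain Col6a1 (10.5) and Col4a1 (7.83) were the highest chains. Col5a1, which sets the diameter of type I fibrils, Col19a1 and Col25a1 followed at 2.49, 2.40 and 2.01 log2 CPM per kb. Col6a5 and Col4a3 were lowest in cortex, at -4.10 and -3.88 log2 CPM per kb. In liver Col18a1, the source of endostatin, was at 126 CPM per kb, above Col5a3 (11), the fibril-associated chain Col14a1 (9.77) and Col27a1 (6.95). Col24a1 and Col4a3 were lowest there, at -4.04 and -4.03 log2 CPM per kb. The tables were normalised separately, so a level in cortex is not set against one in liver.

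**Figure D1:**
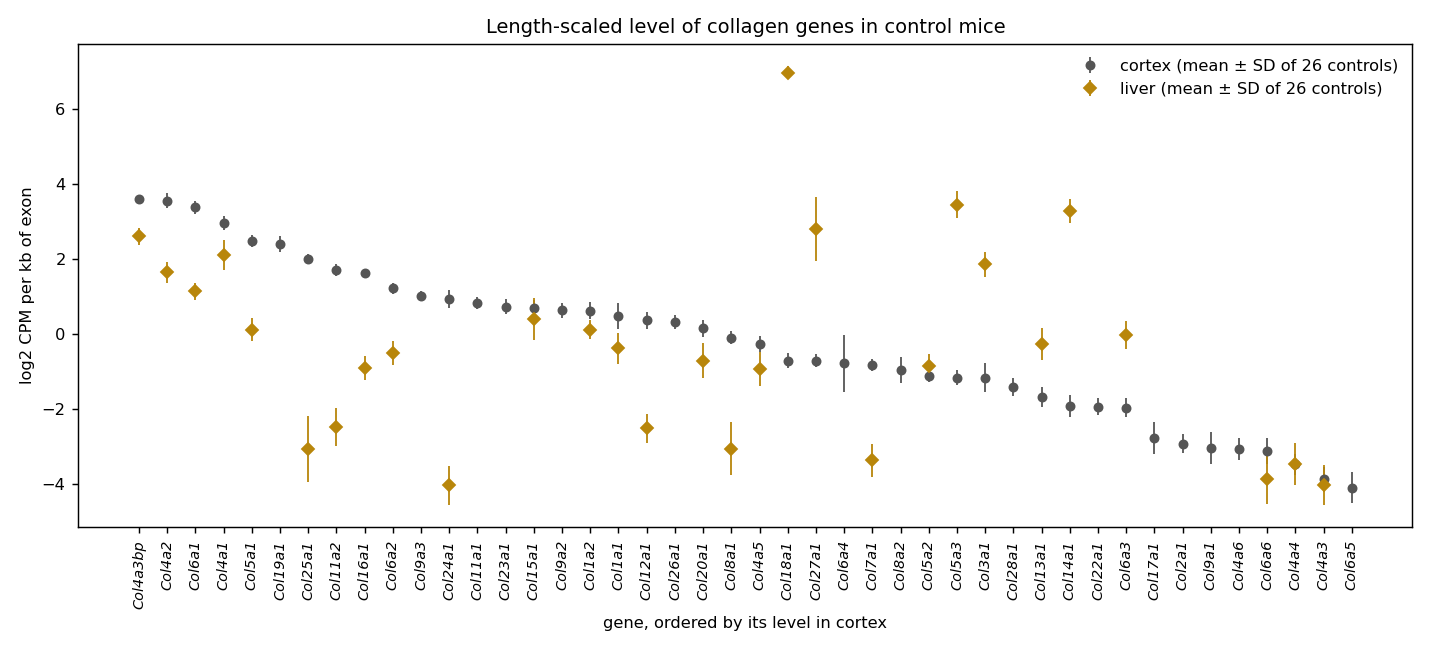
Control level of each collagen gene on a log2 axis, in CPM per kb of exon, with genes ordered by their level in cortex; circles are cortex, diamonds liver, and bars the SD over 26 control mice. Type IV chains Col4a2 and Col4a1 stand at the high end in cortex, and liver Col18a1 stands above the other liver chains.

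In cortex, deprivation changed a minority of the collagen genes and in both directions. At T27, 4 of 44 members were called, against 16.4% of all genes. Of these 2 were higher and 2 lower, where 8.59% of all genes were higher and 7.84% lower. At T30, 11 of 44 were called, against 32.4% of all genes, with 5 higher (15.7% of all genes) and 6 lower (16.8%). At T36, 7 of 44 were called, against 12.5% of all genes, with 5 higher (6.9%) and 2 lower (5.58%). In this fit the members' share was under the background at T27 and T30 and near it at T36. The T27 count depends on the fit: with only the groups compared 9 of 44 members were called, against 2858 of 17108 genes, a share above the background, and without T27S5 2 were called. At T30, 6 of 44 were called with only the groups compared, against 4118 of 17108 genes, and 6 without T30S4. Counts of all genes could fall too when a library was left out, for example to 1874 at T27 without T3N4 and 4821 at T30 without T6N2. The median difference of the members was -0.10 at T27, -0.09 at T30 and 0.07 at T36, and that of all genes -0.01, -0.01 and -0.00.

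The ranges of the libraries leaned to one side at T27, unlike the calls. At T27 all deprived libraries lay above all controls for 2 members, against 17.3% of all genes, and below them for 14 members, against 17.1%. At an unadjusted p under 0.05, 3 members were higher and 10 lower at T27, and 28.9% of all genes passed that threshold in either direction. At T30 all deprived libraries were above the controls for 5, against 16% of all genes, and below them for 8, against 17.3%. At T36 it was 7 above, against 10.5%, and 3 below, against 9.78%. The 14 members below at T27 included the fibril-forming Col1a1, Col1a2, Col5a2 and Col11a1 and the type VI chains Col6a2 and Col6a3, and of the 14 only Col8a1 and Col26a1 were called. By adjusted p, 14 of 44 members were called at 1 or more deprived times. The share of all genes called at 1 or more of these times was not counted. At T30 alone 32.4% of all genes were called, so the count shows no excess among the members. Col4a1 and Col4a2 were the members called at all of T27, T30 and T36.

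**Figure D2:**
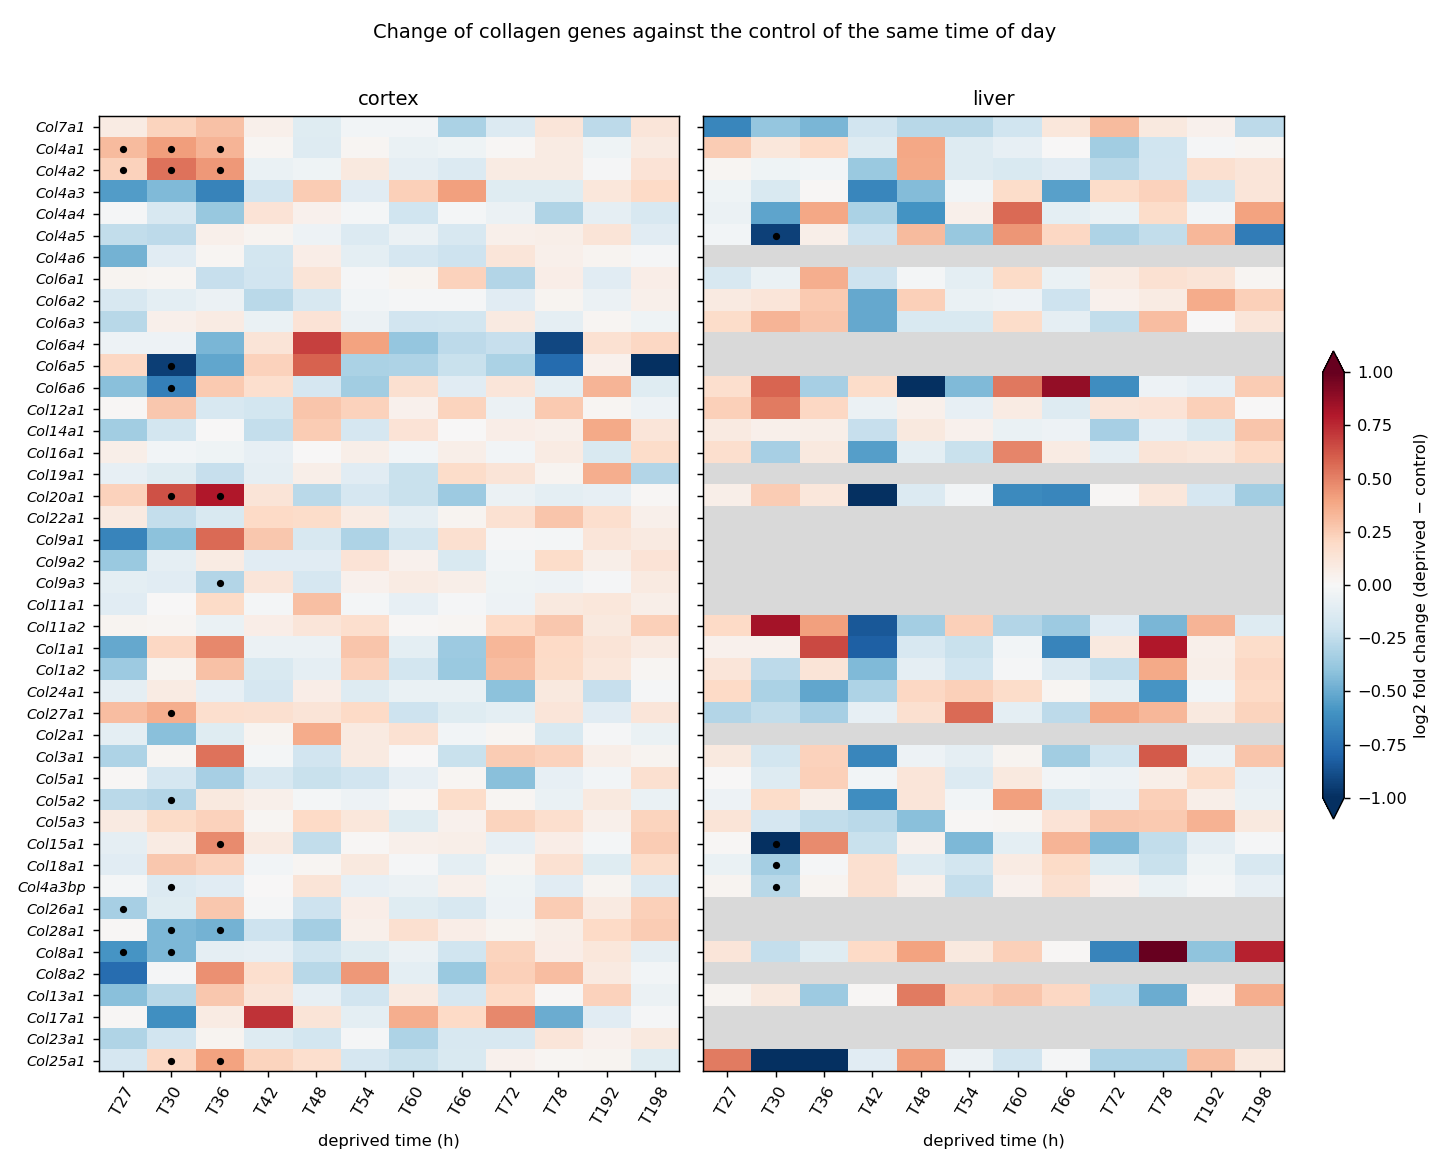
Heat map of the log2 difference from the control of the same time of day for each collagen gene (rows, by class) at the 12 deprived times (columns) in cortex and liver; red is higher, blue lower, colours end at 1 in either direction, black dots mark calls and grey marks genes not in the liver table. Dots lie at T27, T30 and T36 in cortex and at T30 in liver.

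Among the type IV chains, Col4a1 rose at T27, T30 and T36. It was at 5.97, 6.01 and 6.04 log2 CPM in the ZT3 controls and at 6.23, 6.36 and 6.40 at T27. It was at 5.69, 5.71, 5.78, 5.79 and 6.07 in the ZT6 controls and at 6.22, 6.22 and 6.24 at T30. It was at 5.41, 5.55, 5.62, 5.64 and 5.75 in the ZT12 controls and at 5.86, 5.91 and 6.04 at T36. At these 3 times each deprived library was above each control. The increase was 0.32 ± 0.08 (SE) at T27 (1.25-fold, adjusted p = 0.00308), 0.42 ± 0.07 at T30 (1.33-fold, adjusted p = 1.54e-05) and 0.34 ± 0.07 at T36 (1.27-fold, adjusted p = 0.000939). By T42 the deprived libraries, at 5.75, 5.77 and 6.02, overlapped the controls at 5.75 to 5.90.

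Col4a2 moved at the same times. It was at 6.36, 6.42 and 6.46 in the ZT3 controls and at 6.55, 6.64 and 6.74 at T27. It was at 5.98, 6.18, 6.18, 6.19 and 6.46 in the ZT6 controls and at 6.69, 6.74 and 6.76 at T30. It was at 5.88, 5.95, 5.96, 5.99 and 6.09 in the ZT12 controls and at 6.32, 6.36 and 6.53 at T36. Here too the groups did not overlap. The increase was 0.23 ± 0.08 at T27 (1.17-fold, adjusted p = 0.0481), 0.54 ± 0.08 at T30 (1.45-fold, adjusted p = 2.75e-07) and 0.43 ± 0.08 at T36 (1.35-fold, adjusted p = 5.73e-05). The T27 call of Col4a2 was lost without T3N2, T3N3, T3N4, T27S2 or T27S5, with adjusted p up to 0.21, and with same-batch controls, median centring or no mean trend, with adjusted p up to 0.0627. The other 5 calls of the pair held without any single library.

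Both genes are made by cells of the vessel wall, whose markers are given beside them. The 12 endothelial markers averaged 4.65 to 4.83 log2 CPM in the ZT3 controls and 4.60 to 4.68 at T27, 4.59 to 4.71 in the ZT6 controls and 4.62 to 4.64 at T30, and 4.38 to 4.59 in the ZT12 controls and 4.59 to 4.66 at T36. Of the 12, 3 fell at T27, 1 rose and 3 fell at T30, and 4 rose and 1 fell at T36. Of all genes 8.59% rose and 7.84% fell at T27, 15.7% and 16.8% at T30, and 6.9% and 5.58% at T36. The mural cell markers averaged 3.05 to 3.32 in the ZT12 controls and 3.30 to 3.56 at T36, with 1 of 12 called, Higd1b, which rose. With the endothelial and mural means as covariates, Col4a1 was still 0.45 higher at T30 and 0.23 higher at T36 (adjusted p = 0.0243), and Col4a2 0.57 and 0.32 higher (adjusted p = 0.00239 at T36). The part of vessel content in the differences was not tested beyond these values.

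The other type IV chains, which build the membranes of kidney glomeruli and other special sites, had no call. All Col4a5 libraries of T27 and T30 were below all controls, by 0.25 ± 0.12 and 0.26 ± 0.11 (adjusted p = 0.161 and 0.0714). Col4a3, Col4a4 and Col4a6 averaged -0.56, -0.07 and -0.06 log2 CPM in controls.

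**Figure D3:**
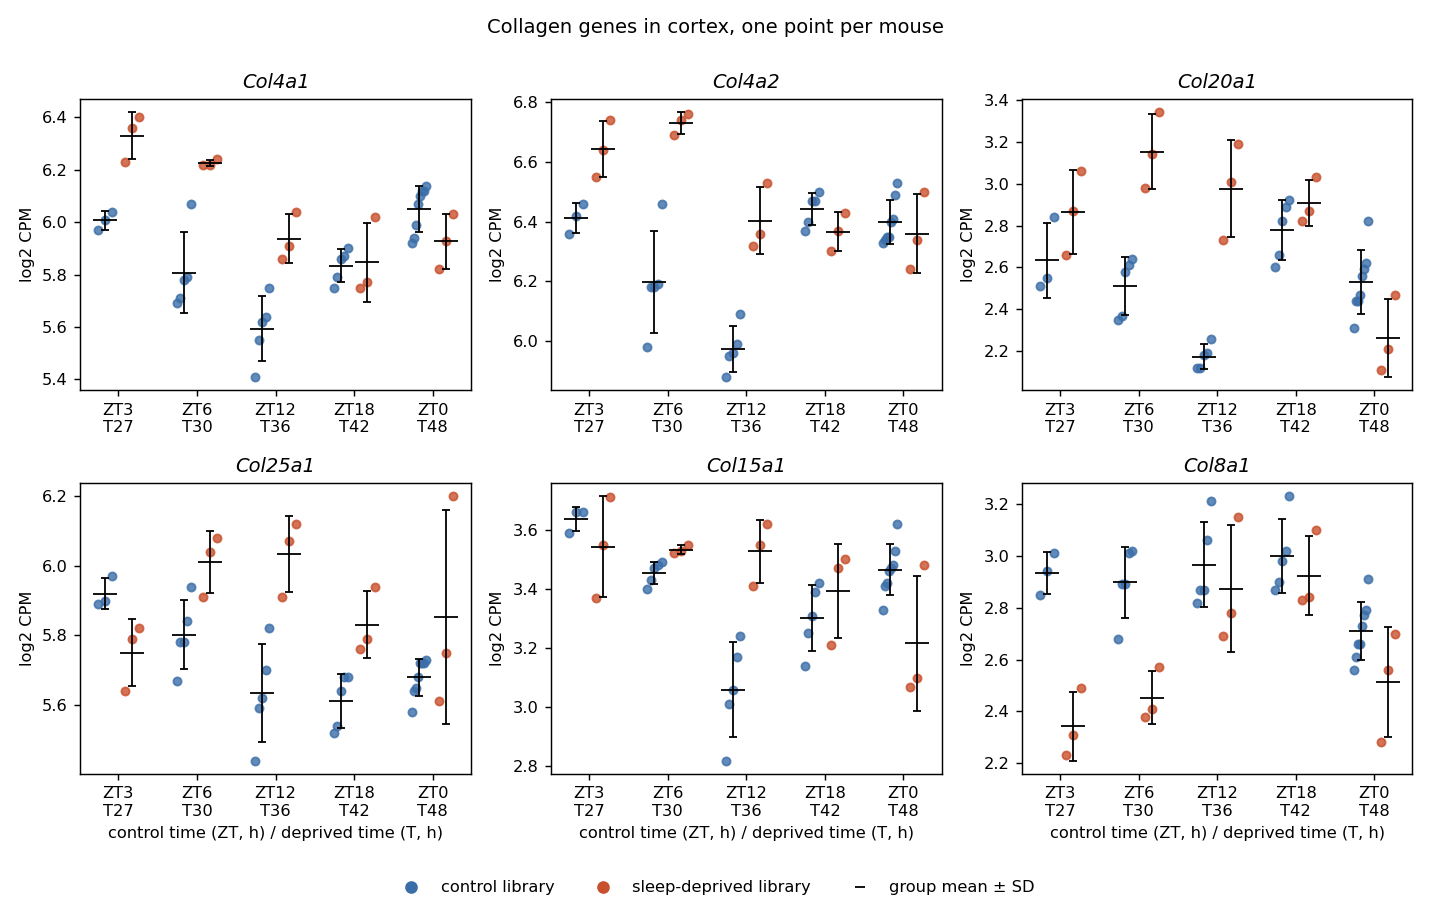
Level of 6 collagen genes in cortex (vertical axes, log2 CPM) at 5 times of day, 1 point per mouse; blue points are controls, orange points the deprived mice of T27, T30, T36, T42 and T48, and black bars the mean and SD. Orange lies above blue at the first 3 times for Col4a1 and Col4a2, and below blue at T27 and T30 for Col8a1.

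Of the short-chain network collagens, Col8a1, known from vessel walls and the cornea, fell during deprivation. It was at 2.85, 2.94 and 3.01 in the ZT3 controls and at 2.23, 2.31 and 2.49 at T27. It was at 2.68, 2.89, 2.89, 3.01 and 3.02 in the ZT6 controls and at 2.38, 2.41 and 2.57 at T30. The groups did not overlap at either time. It fell by 0.59 ± 0.12 at T27 (1.51-fold lower, adjusted p = 0.000506) and by 0.45 ± 0.11 at T30 (1.36-fold lower, adjusted p = 0.00184), and both calls held without any library and with each marker covariate. At T36 it overlapped the controls and was not called, at 2.69, 2.78 and 3.15 against 2.82 to 3.21. Col8a2, its partner chain, was 0.76 ± 0.28 lower at T27 without a call (adjusted p = 0.0508).

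Among the fibril-associated chains Col20a1 gave the highest increase of any member at T30 and T36. It was at 2.35, 2.37, 2.58, 2.61 and 2.64 in the ZT6 controls and at 2.98, 3.14 and 3.34 at T30. It was at 2.12, 2.12, 2.18, 2.19 and 2.26 in the ZT12 controls and at 2.73, 3.01 and 3.19 at T36. The groups did not overlap. It rose by 0.64 ± 0.14 at T30 (1.56-fold, adjusted p = 0.00024) and by 0.80 ± 0.14 at T36 (1.74-fold, adjusted p = 2.99e-05), and both calls held without any library. At T27 it overlapped the controls, at 2.66, 2.87 and 3.06 against 2.51, 2.55 and 2.84. Its exons share 79 bases (1.54%) with a noncoding gene on the same strand. Col9a3, a chain of cartilage, was 0.29 ± 0.10 lower at T36 (adjusted p = 0.0432), a call lost without any 1 of 6 libraries (T12N1, T12N2, T12N5, T36S1, T36S2 or T36S4, adjusted p up to 0.149) and with only the groups compared or same-batch controls (up to 0.0775). Its exons share 6.07% of their bases with Tcfl5 on the opposite strand.

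The multiplexin Col15a1, a link between vascular basement membrane and stroma, was called higher than its controls at T36 alone. It was at 2.82, 3.01, 3.06, 3.17 and 3.24 in the ZT12 controls and at 3.41, 3.55 and 3.62 at T36, with no overlap. The increase was 0.47 ± 0.10 (1.38-fold, adjusted p = 0.000628), and 0.35 (adjusted p = 0.0184) with the endothelial and mural covariates. At T30 its libraries were at 3.52, 3.53 and 3.55 and the controls at 3.40 to 3.49, a difference of 0.08 (adjusted p = 0.575). The deprived libraries of T30 lay within the range of those of T36, whereas the ZT12 controls lay below the ZT6 controls. Col18a1, the other multiplexin, had no call, with 2.16, 2.40 and 2.51 at T30 against 1.68 to 2.32.

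Of the transmembrane chains Col25a1, made by neurons and found in amyloid plaques, was called higher than its controls at T30 and T36. It was at 5.44, 5.59, 5.62, 5.70 and 5.82 in the ZT12 controls and at 5.91, 6.07 and 6.12 at T36, with no overlap, an increase of 0.40 ± 0.08 (1.32-fold, adjusted p = 0.000488). At T30 it was at 5.91, 6.04 and 6.08 against 5.67, 5.78, 5.78, 5.84 and 5.94, which overlapped. That increase was 0.21 ± 0.08 (adjusted p = 0.0427), and it was lost without T6N3, T6N4, J76N1, J76N2, T30S1 or T30S4 (adjusted p up to 0.167) and with same-batch controls, only the groups compared or no mean trend (up to 0.103). At T27 the 3 deprived libraries were below the controls, at 5.64, 5.79 and 5.82 against 5.89, 5.90 and 5.97 (-0.17 ± 0.09, adjusted p = 0.193). The deprived libraries of T30 lay within the range of those of T36. The lowest and highest controls were lower at ZT12 than at ZT6.

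The remaining cortex calls each depended on single libraries. Col27a1, a fibril-forming chain, was at 3.25, 3.27 and 3.30 at T30 against 2.54, 2.75, 2.98, 3.08 and 3.22 (0.36 ± 0.11, adjusted p = 0.0102), and without T6N4 the adjusted p was 0.0817 and with only the groups compared 0.121. Col26a1 was at 3.25, 3.39 and 3.41 at T27 against 3.60, 3.68 and 3.76 (-0.33 ± 0.11, adjusted p = 0.0377). It was lost without T3N2, T3N4, T27S2, T27S3 or T27S5 (adjusted p up to 0.152) and with the meningeal covariate (-0.24, adjusted p = 0.17) or the endothelial and mural ones (-0.32, adjusted p = 0.057). Col28a1 was 0.45 ± 0.16 lower at T30 (adjusted p = 0.0253) and lost that call without T6N3 or T30S4 (adjusted p up to 0.198) and with only the groups compared (0.0613). At T36 it was at 0.47, 0.77 and 0.85 against 0.79 to 1.51, a call (adjusted p = 0.0454) lost without T12N1, T12N2, T12N4, T12N6, T36S1 or T36S2 (adjusted p up to 0.27) and with the meningeal covariate, same-batch controls or only the groups compared (up to 0.123).
The beaded-filament chain Col6a6 was at -0.35, -0.32 and -0.21 at T30 against 0.23 to 0.56 (-0.68 ± 0.23, adjusted p = 0.0162; up to 0.0549 without T30S3 or T30S4). Col6a5 was at -1.85, -1.39 and -1.27 against -1.14, -0.80, -0.65, -0.65 and 0.41 (-0.94 ± 0.35, adjusted p = 0.0345; up to 0.172 without T6N2, T30S1 or T30S3, and 0.052 with only the groups compared). These 2 chains lay near the low end of the table, whereas the abundant Col6a1 was 0.02 ± 0.12 from the controls at T30 (adjusted p = 0.906) and Col6a2 -0.10 ± 0.09 (adjusted p = 0.463). Col5a2 was 0.29 lower at T30 (adjusted p = 0.048), lost without all but T6N4 of its 8 libraries in turn (adjusted p up to 0.247), with either set of marker covariates, and with same-batch controls or only the groups compared (up to 0.179). Col4a3bp was 0.14 ± 0.05 lower at T30 (adjusted p = 0.0336; up to 0.218 without T6N2, T6N4, T30S3 or T30S4).

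Col1a1, Col1a2 and Col3a1, the fibril-forming chains of fibroblasts, were called at none of the 12 deprived times in cortex taken singly, and their levels varied with those of meningeal markers. Col1a1 was at 3.47, 3.75 and 3.88 in the ZT3 controls and at 3.12, 3.18 and 3.27 at T27, all below (-0.51 ± 0.19, adjusted p = 0.0519). Col1a2 was at 4.39, 4.57 and 4.82 in the ZT3 controls and at 4.19, 4.22 and 4.29 at T27, all below (-0.36 ± 0.16, adjusted p = 0.122). Col3a1, their partner in fibrils, was at 2.34, 2.51 and 3.03 against 2.13, 2.26 and 2.54 and overlapped (-0.31 ± 0.21, adjusted p = 0.34). At T36 the sign was the other way: Col1a1 was at 2.95, 3.19 and 3.50 against 2.37, 2.67, 2.69, 2.88 and 3.05 (0.48 ± 0.17, adjusted p = 0.0543), and Col3a1 at 1.94, 2.07 and 2.32 against 1.03, 1.53, 1.65, 1.69 and 1.96 (0.54 ± 0.19, adjusted p = 0.057). Col1a2 differed by 0.29 ± 0.15 at T36 (adjusted p = 0.198). With the endothelial and mural covariates Col1a1 at T27 was -0.44 with an adjusted p of 0.0431, a call that the fit without covariates did not give. Col5a1 was 0.33 ± 0.14 lower at T36 (adjusted p = 0.113).

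The 12 meningeal and fibroblast markers, none of them a collagen, averaged 3.24 to 3.59 log2 CPM in the ZT3 controls and 2.83 to 3.10 at T27, and summed to 135 to 174 and 102 to 123 CPM. Slc22a6, Slc13a4, Slc6a13 and Aldh1a2 of this list fell at T27, where 7.84% of all genes fell. At T30 and T36, 0 of the 12 were called, against 32.4% and 12.5% of all genes. The list averaged 2.91 to 3.36 in the ZT6 controls and 2.73 to 3.35 at T30, and 2.74 to 3.19 in the ZT12 controls and 2.84 to 3.38 at T36. With this average as a covariate the T27 difference became -0.09 for Col1a1 (adjusted p = 0.643), 0.02 for Col1a2 (adjusted p = 0.913) and 0.14 for Col3a1 (adjusted p = 0.518). With the same covariate Col1a1 was 0.32 higher at T30 (adjusted p = 0.00574) and 0.31 higher at T36 (adjusted p = 0.0253), and Col3a1 0.35 higher at T36 (adjusted p = 0.0386). Without it, the T30 difference of Col1a1 was 0.21 (adjusted p = 0.364). One ZT3 control library, T3N2, also held choroid plexus markers, at an average of 1.41 log2 CPM over the 5 measured, against -0.13 and -0.08 in the other ZT3 controls and -0.92 to -0.70 at T27. The T27 calls of Col4a1 and Col8a1 held without that library, and the part of meningeal and choroid plexus tissue in the T27 values was not tested beyond these values.

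**Figure D4:**
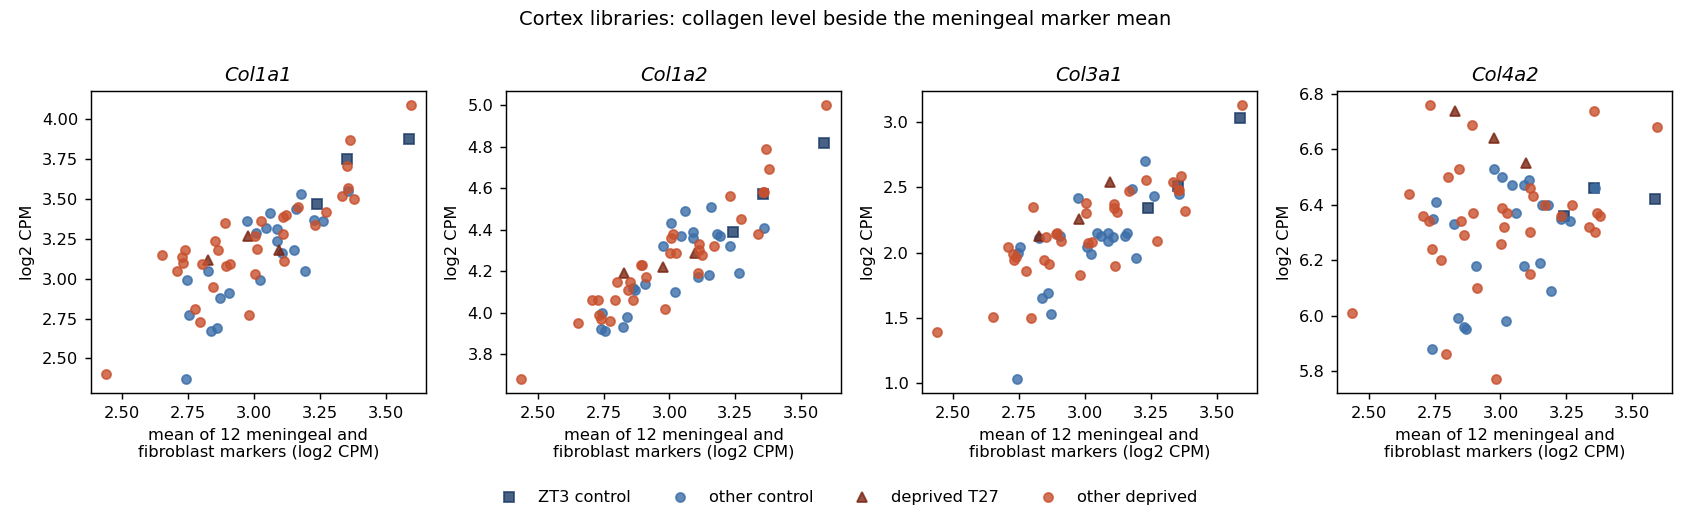
Level of Col1a1, Col1a2, Col3a1 and Col4a2 (vertical axes, log2 CPM) against the mean of 12 meningeal and fibroblast markers (horizontal axes, log2 CPM) in the 62 cortex libraries, with ZT3 controls (dark squares) and T27 (dark triangles) set apart. The type I and III chains climb with the markers (r = 0.82, 0.90 and 0.78), and Col4a2 shows little slope (r = 0.26).

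Over the 62 cortex libraries the relation was closest for Col1a2 (Pearson r = 0.90, Spearman rho = 0.87, permutation p = 1e-05 for r, the smallest that 100000 resamples can give, and 0.000235 adjusted over 352 pairs of gene and list). It was 0.87 without the 2 libraries farthest from the median, and 0.91 and 0.86 within batches 1 and 2. Col1a1 gave r = 0.82 and rho = 0.81 (0.78 without those 2 libraries, 0.84 and 0.75 within batches) and Col3a1 r = 0.78 and rho = 0.74 (0.73, 0.76 and 0.79), with the same permutation p for r and rho. Of the short-chain pair Col8a2 gave r = 0.76 and rho = 0.73 (0.74, 0.73 and 0.79), again with that p. Col4a1 and Col4a2 gave r = 0.27 and 0.26 (adjusted permutation p = 0.0866 and 0.0918) and rho = 0.20 for each. With the endothelial list they gave r = 0.57 and 0.60 (adjusted permutation p = 0.000235 and 0.000352), rho = 0.45 for each (adjusted permutation p = 0.0029 and 0.00293), r = 0.52 and 0.54 without the 2 farthest libraries, and within batches 0.44 and 0.78 for Col4a1 and 0.42 and 0.83 for Col4a2. Groups differ in both measures, and over deviations from the group means the endothelial relation was 0.42 for each, and the meningeal one 0.86 for Col1a1, 0.90 for Col1a2 and 0.84 for Col3a1. In cortex 115 of the 352 pairs passed the adjusted permutation test.

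After T36 no collagen gene was called in cortex by limma. At an unadjusted p under 0.05 there were 3 of 44 at T42, 9 at T48, 1 at T54, 2 at T60, 4 at T66, 8 at T72, 5 at T78, 3 at T192 and 6 at T198. At that unadjusted threshold the share of all genes was 12.2%, 13.2%, 10.2%, 7%, 9.51%, 6.24%, 5.27%, 6.32% and 8.7% at these times. By adjusted p, of all genes 1.03% were called at T42, 1.49% at T48 and 0% at each later time. At T48 Col4a1 was at 5.82, 5.93 and 6.03 and the ZT0 controls at 5.92 to 6.14 with a median of 6.08, and Col20a1 was at 2.11, 2.21 and 2.47 against 2.31 to 2.82. Col15a1 was lower at T48 (3.07, 3.10 and 3.48 against 3.33 to 3.62) without a call, by 0.25 (adjusted p = 0.177). A week on, at T192 and T198, Col4a1 was at 5.92 to 6.14 and 5.88 to 5.91, within or near the control ranges of 5.92 to 6.14 and 5.69 to 6.07.

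The test over all 12 deprived times called 12 of 44 members, against 35.2% of all genes. Col4a2 (adjusted p = 3.32e-07), Col20a1 (6.55e-07), Col4a1 (4.78e-06), Col25a1 (2.36e-05), Col8a1 (0.000189), Col26a1 (0.00148) and Col15a1 (0.0033) led it, and Col28a1, Col27a1, Col23a1, Col1a1 and Col4a3bp followed at 0.0293 to 0.0499. The change from T27 to T30 in the deprivation effect was called for 0 of 44 members by limma (5 at an unadjusted p under 0.05, as were 7.44% of all genes), against 0.00585% of all genes called.

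Undisturbed mice also differed by time of day. In cortex 17 of 44 members were called over the 5 control times, against 41.9% of all genes. Of the 17, 10 were highest at ZT3, which rests on 3 mice of batch 1, and 10 were lowest at ZT12, the end of the light phase. Col4a2 spanned 0.47 log2 between its highest and lowest times (1.39-fold, adjusted p = 3.78e-08) and Col4a1 0.46 (1.37-fold, adjusted p = 6.23e-08). Col15a1 spanned 0.57 (adjusted p = 7.86e-06), Col20a1 0.60 (adjusted p = 0.000594) and Col25a1 0.31 (adjusted p = 0.0054). Col3a1 and Col1a1 spanned 1.05 (2.07-fold, adjusted p = 9.42e-05) and 0.97 (1.96-fold, adjusted p = 0.000112). With the meningeal covariate these spans were 0.60 (adjusted p = 6.16e-06) and 0.49 (adjusted p = 3.22e-05). The T36 libraries of Col4a1, Col4a2 and Col15a1 overlapped the ZT0 controls, at 5.92 to 6.14, 6.33 to 6.53 and 3.33 to 3.62.

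Of 19 enzymes and chaperones that fold collagen chains, 6 rose and 2 fell at T27 in cortex, 10 rose and 3 fell at T30, and 3 rose and 1 fell at T36. The counts of this list and of those that follow stand against all genes, of which 8.59% rose and 7.84% fell at T27, 15.7% and 16.8% at T30, and 6.9% and 5.58% at T36. Serpinh1, the collagen chaperone HSP47, was at 3.20 to 3.56 with a median of 3.39 in the ZT6 controls and at 3.89, 4.23 and 4.27 at T30 (0.74 ± 0.11, adjusted p = 3.96e-07). P4ha1, a subunit of the prolyl hydroxylase that stabilises the helix, was at 4.90 to 5.29 in the ZT6 controls and at 5.81, 5.86 and 6.03 at T30 (0.85 ± 0.10, adjusted p = 3.92e-09). P3h3 rose by 0.53 at T30, Crtap fell by 0.46 at T27, and Colgalt1, which adds galactose to chains, fell by 0.22 at T30.
Of 11 trimming and cross-linking enzymes 1 fell at T27 (Adamts3, by 0.56), 2 at T30 and 1 at T36, and 0 rose. Of 11 breakdown enzymes and inhibitors, 0 rose and 1 fell at T27, 1 rose and 1 fell at T30, and 2 rose and 1 fell at T36. Timp1, an inhibitor of metalloproteases, rose by 1.34 at T30 and 2.01 at T36 (adjusted p = 9.79e-05), and Mmp9 fell by 0.55 at T30. Of 7 collagen receptors 1 rose and 1 fell at T27, 2 rose and 2 fell at T30, and 0 were called at T36. Itga10, an integrin chain, rose by 0.72 at T27 and by 1.38 at T30 (3.01, 3.09 and 3.13 against 1.48 to 2.02, adjusted p = 4.57e-11), and Itga11 by 0.75 at T30. Among 16 other basement membrane genes, Lama4 and Lama2 fell at T27, Lamc1 rose by 0.18 at T30, and Nid1 rose by 0.28 at T36. Of 11 fibrogenic signalling genes, 3 rose and 1 fell at T27, 4 rose and 1 fell at T30, and 3 rose and 0 fell at T36. Smad3, Tgfb3 and Smad7, of the TGF-beta pathway, rose at T27 and T30, and Ctgf rose by 0.76 at T30.

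In liver 4 of 29 members were called at a single deprived time, all of them lower and all at T30, the end of deprivation. A factor of 3 levels that no label names had been removed from the liver values before deposit, so liver p-values are too small. At T27 limma called 0 of 29 (0 at an unadjusted p under 0.05, against 12.6% of all genes), where 1.5% of all genes were called. At T30 it called 4 of 29, against 15.8% of all genes, with 0 higher (7.84% of all genes) and 4 lower (7.95%). At T30 the deprived libraries lay below all controls for 3 members, against 9.41% of all genes, and above them for 0, against 10.2%. At T36 it called 0 (2 at an unadjusted p under 0.05, against 18.1% of all genes), where 3.16% of all genes were called. The members' median difference at T30 was -0.15, and that of all genes 0.00.

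Col4a5, a type IV chain, was at 2.08, 2.17, 2.38, 2.50 and 2.53 in the ZT6 controls of liver and at 1.53, 1.53 and 1.58 at T30, all below. It fell by 0.93 ± 0.23 (1.9-fold lower, adjusted p = 0.00374), held without any library and under each of 10 other settings. Col15a1 was at 2.67, 2.93, 3.16, 3.20 and 3.99 in the controls and at 1.22, 2.00 and 2.99 at T30, with an overlap (-1.15 ± 0.30, adjusted p = 0.00539, and 0.172 without T30S1). Col18a1, the most abundant chain of liver per length, was at 9.78, 9.92, 9.98, 10.05 and 10.11 in the controls and at 9.45, 9.73 and 9.74 at T30, all below (-0.34 ± 0.10, adjusted p = 0.0136, and 0.191 without T30S1). All 4 calls held with that factor as a covariate (adjusted p from 0.00507 to 0.043). Fitted on the groups compared alone, Col15a1 and Col18a1 had adjusted p of 0.121 and 0.0534. Col4a3bp was 0.28 lower (adjusted p = 0.0352, up to 0.178 without T30S1, T30S3, T6N2, T6N3 or T6N4). The pair that rose in cortex had no call: Col4a1 differed by 0.11 ± 0.24 and Col4a2 by -0.04 ± 0.20 at T30 (adjusted p = 0.809 and 0.913). The difference between tissues was not tested. Of the other chains followed in both tissues, Col1a1 differed by 0.04 ± 0.23, Col3a1 by -0.18 ± 0.20, Col5a1 by -0.13 ± 0.15 and Col6a1 by -0.07 ± 0.17 at T30, all without a call. Col25a1, scarce in liver, was at -0.53, -0.10 and 0.42 at T30 against 0.18 to 1.90, and at -2.16, 0.82 and 2.51 at T36 against 0.84 to 2.49 (adjusted p = 0.153 and 0.283). Its T36 libraries spanned more than the controls. The cartilage chain Col11a2 was at 0.72, 0.76 and 1.03 at T30 against -0.51 to 0.80 (0.83 ± 0.32, adjusted p = 0.0659). At T36 the 3 Col1a1 libraries, at 2.31, 2.60 and 2.88, were above the controls at 1.64 to 2.25 (0.66 ± 0.23, adjusted p = 0.102).

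At T42, 12 h after deprivation, limma called 0 of 29 in liver, against 0% of all genes, while 9 of 29 had an unadjusted p under 0.05, all lower, as had 9.03% of all genes in either direction. Col1a1 was at 1.45, 1.93 and 2.68 against 2.24 to 3.24 (-0.82 ± 0.23, adjusted p = 0.17), and Col3a1 at 4.27, 5.01 and 5.34 against 5.15 to 5.78 (-0.65 ± 0.20, adjusted p = 0.228). The 9 portal fibroblast markers averaged 1.89 to 2.13 in the ZT18 controls and 1.77 to 2.10 at T42. Col11a2 was at -0.51, 0.21 and 0.55 against 0.59 to 1.30, all below (adjusted p = 0.361). At T78 Col1a1 was 0.80 higher (2.86, 3.07 and 3.44 against 1.72 to 2.53, adjusted p = 0.36) and Col3a1 0.61 higher (adjusted p = 0.443), and Col8a1 was at 0.36, 0.40 and 0.95 against -2.62 to 0.19 (adjusted p = 0.505). At T78 each deprived library was above each control for 4 members, these 3 and Col1a2 (3.90 to 4.36 against 3.29 to 3.87), without a call. The share of all genes so separated at T78 was not counted. Calls were 0 at T48 (4 at an unadjusted p under 0.05, against 10.1% of all genes), where 0.015% of all genes were called, and 0 at each later time, where 0% of all genes were called. At an unadjusted p under 0.05 there were 2 of 29 at T54, 1 at T60, 2 at T66, 0 at T72, 5 at T78, 0 at T192 and 1 at T198, where 8.58%, 4.2%, 9.22%, 6.78%, 8.21%, 1.87% and 4.42% of all genes had one. Of these, Col6a6 was at -1.03, -0.80 and -0.59 at T66 against -2.04 to -1.07 (adjusted p = 0.518). Over the 12 times together 2 of 29 were called, Col1a1 (adjusted p = 0.00942) and Col4a5 (adjusted p = 0.0411), against 10.7% of all genes. The Col4a5 call was lost with the unlabelled factor as covariate (adjusted p = 0.0597), without a batch term (0.0644) and with same-batch controls (0.0728). The change from T27 to T30 was called for 0 of 29 (3 at an unadjusted p under 0.05, as were 11.5% of all genes), against 0.142% of all genes called.

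Time of day was called for 14 of 29 liver members, against 52% of all genes. Col27a1 had the widest swing. It was at 5.22, 5.38, 5.51, 5.83 and 6.27 log2 CPM at ZT6 and at 7.15, 7.36, 7.67, 7.73 and 8.29 at ZT18, a span of 2.00 (4-fold, adjusted p = 9.2e-11) with no overlap. In deprived mice it was at 5.21, 5.41 and 5.77 at T30, at 6.40, 6.65 and 7.90 at T36 and at 7.53, 7.66 and 7.70 at T42, and it was called at none of the 12 times. Col15a1 was at 2.37 to 2.52 at ZT3 and 3.51 to 3.97 at ZT18 (2.43-fold, adjusted p = 0.000243). Col5a1 spanned 0.74 with its high at ZT3 (adjusted p = 3.42e-05), Col18a1 0.39 with its high at ZT6 (adjusted p = 0.000132) and Col1a1 0.91 with its high at ZT18 (adjusted p = 0.00229, and 0.082 with the sinusoidal and stellate covariates). The minor type V chain Col5a3 spanned 0.60 with its high at ZT0 (adjusted p = 0.00346, and 0.154 with same-batch controls). Col4a1 spanned 0.62 (adjusted p = 0.0413), a call lost without any 1 of 12 of the 26 controls (adjusted p up to 0.135) and under 5 of 10 other settings (up to 0.296). In both tissues 7 members were called over the control times: Col1a1, Col3a1, Col4a1, Col4a5, Col15a1, Col20a1 and Col4a3bp. The share of all genes called in both tissues was not counted. In the single tissues 41.9% of all genes were called in cortex and 52% in liver.

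**Figure D5:**
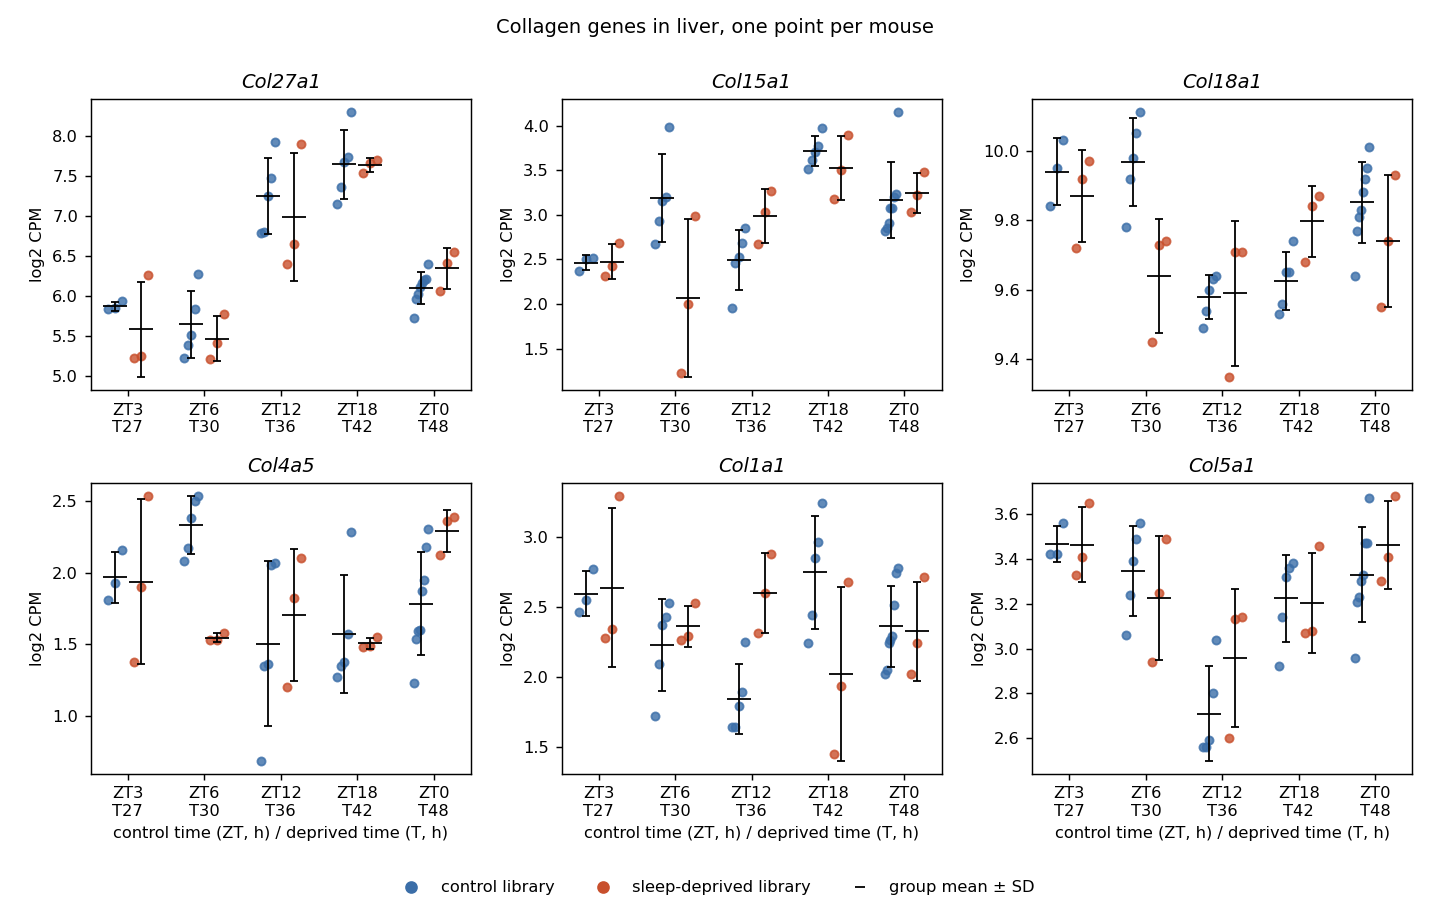
Level of 6 collagen genes in liver (vertical axes, log2 CPM) at 5 times of day, 1 point per mouse; blue points are controls, orange points the deprived mice of T27, T30, T36, T42 and T48, and black bars the mean and SD. Col27a1 swings from 5.22 to 6.27 at ZT6 to 7.15 to 8.29 at ZT18 in controls, and Col4a5 lies below its controls at T30.

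Liver chains differed in how closely they varied with cell type markers. Over 62 libraries Col14a1 and Col4a1 gave Pearson r = 0.87 and 0.80 with the mean of 12 stellate cell markers (rho = 0.83 and 0.81, permutation p = 1e-05, the smallest possible, and 9.67e-05 adjusted over 174 pairs). Without the 2 libraries farthest from the median r was 0.84 and 0.78. Within batches 1 and 2 it was 0.87 and 0.79 for Col14a1 and 0.80 and 0.78 for Col4a1. Col1a1, Col1a2 and Col3a1 gave r = 0.64, 0.68 and 0.67 with the portal fibroblast markers (rho = 0.64, 0.68 and 0.63, with the same permutation p). Without the 2 farthest libraries these were 0.63, 0.66 and 0.64, and within batches 0.60 and 0.72, 0.71 and 0.54, and 0.70 and 0.46. Col1a1 passed the adjusted permutation test with the portal list alone. Col1a2 also passed with the cholangiocyte and stellate lists (r = 0.42 and 0.33), and Col3a1 with the cholangiocyte list (r = 0.33). The relations of Col14a1 and Col4a1 were not particular to 1 cell type. Col14a1 also gave r = 0.86 with the sinusoidal endothelial markers and 0.72 with the Kupffer cell markers, and Col4a1 0.73 and 0.61. Over deviations from the group means Col4a1 gave 0.91 with the sinusoidal list and 0.88 with the stellate one. Col18a1 gave -0.17 with the hepatocyte markers and Col5a3 -0.29 with the stellate markers (adjusted permutation p = 0.352 and 0.073). With other lists both genes passed. Col18a1 gave 0.37 with the stellate markers (adjusted permutation p = 0.0124). Col5a3 gave -0.45 with the sinusoidal and -0.47 with the Kupffer cell markers (adjusted permutation p = 0.0016 and 0.00087). In liver 44 of the 174 pairs passed. The stellate markers averaged 3.23 to 3.89 in the ZT6 controls and 2.97 to 3.74 at T30, and the portal markers 1.60 to 1.93 and 1.71 to 2.00. The 4 calls of T30 held with either set of liver markers as covariates.
Of 18 folding enzymes and chaperones in liver, 3 rose at T27 and 5 at T30, and 0 fell at either time, where 1.5% of all genes were called at T27, and 7.84% rose and 7.95% fell at T30. Serpinh1 was at 2.77 to 3.25 in the ZT6 controls and at 3.99, 4.04 and 4.25 at T30 (1.12 ± 0.18, adjusted p = 2.13e-05), and P4ha1 rose by 0.95 and P4ha2 by 0.86. Itga10 rose by 1.29 at T27 and 1.05 at T30. Among 16 other basement membrane genes Nid2 and Lama5 fell at T30, by 0.87 and 0.58, at the time when Col4a5, Col15a1 and Col18a1 were lower.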

How the data were processed

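The deposited values are log2 CPM per gene, 1 table per tissue; per the submitters' processing notes, the authors used fastp, STAR 2.7.0e and edgeR on mm10 (GRCm38). Read counts and the depth of each library are unknown, so no count test was possible; the protocols state more than 24000000 mappable reads for liver libraries. The labels' protocols describe the liver libraries alone (stranded mRNA, single-end reads), and for cortex the library preparation is not stated in those sources. In the deposited values the label batch had been removed in cortex. In liver a factor of 3 levels that no label names, and that did not match the label batch, had been removed instead. This makes the liver p-values too small. Rows that name no gene stayed out of the fits; there were 77 of them in cortex (0.0618% of summed CPM) and 35 in liver (0.0337%).

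Each tissue was fitted once with limma 3.58.1 in R 4.3.3 (eBayes with a mean trend, 17 groups and the label batch, two-sided), with Benjamini-Hochberg adjustment over all its genes and a threshold of 0.05. The fit was tested on simulated data. No label says that mice of a group came from separate litters, so p-values measure the spread between these mice. Relations used 100000 permutations. Members and lists were chosen with earlier results of these data known. Named members were the 10 leading over the 12 times, the 6 leading over the control times, up to 4 in each direction in each comparison, and a list of 10 always given. Positions are from GENCODE M21 and sequences from RefSeq (GRCm38.p6). Alternatives were a filter on low values, log2(CPM + 1), no batch term, same-batch controls, only the groups compared, median centring, no trend, marker covariates, the unlabelled liver factor, and leaving out each library. One basement membrane gene of the lists is not reported here.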

Additional observations from a re-analysis of the deposited data

Results flagged for a closer look

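Single libraries stood apart from their group in 2 of 76 control groups tested in cortex and 3 of 68 in liver, where chance flags about 1 in 20. In cortex, Col27a1 was at 2.84 log2 CPM in ZT18 control T18N4, with the others at 3.05 to 3.13. Col4a1 was at 6.07 in ZT6 control T6N3, with the others at 5.69 to 5.79. In liver, Col15a1 was at 4.15 in ZT0 control T0N3, with the others at 2.82 to 3.23. Col5a3 was at 6.47 in ZT12 control T12N1, with the others at 5.75 to 5.92. Col8a1 was at -2.62 in ZT6 control T6N3, with the others at -0.62 to 0.19.

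At T27 the 3 deprived libraries of Col25a1 all lay below the controls in cortex (-0.17, adjusted p = 0.193 by limma) and all above them in liver (0.52, adjusted p = 0.861 by limma). The difference between the tissues was not tested.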

How the results depend on the processing

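Of the alternative values, 1466 kept their direction and their side of the threshold, 139 lost a call, 22 gained one and 2 changed sign. The tally covered each call of the main fit at a single deprived time or over the control times. It also covered Col1a1 at T27, T30 and T36, Col1a2 at T27 and Col3a1 at T27 and T36 in cortex. These were uncalled in the main fit and were added after the covariate fits were seen. All gained calls came from them, and other uncalled members were not counted. Fitted only on the groups compared, the members called were 9 at T27 (with 2858 of 17108 genes) and 6 at T30 (with 4118) in cortex, and 2 at T30 in liver. With controls of the same batch, liver had 1 call at T36 and 9 for time of day. Over the 12 times liver had 1 call with the unlabelled factor as covariate and 4 with the portal fibroblast covariate. The sign changes were those of Col3a1 (0.14) and Col1a2 (0.02) at T27 in cortex with the meningeal covariate. The cause was not tested, beyond the fewer libraries in the fits on the groups compared or on same-batch controls. Leaving out single libraries gave 2 to 5 calls at T27 (2 without T27S5) and 6 to 9 at T30 (6 without T30S4) in cortex, 0 to 1 at T48 (1 without T48S4) and 0 to 1 at T66 (1 without T66S2). In liver it gave 1 to 4 at T30 (1 without T30S1) and 0 to 1 at T36 (1 without T12N5 or T36S4). Counts of all genes could fall as well: in cortex from 2810 to 1874 at T27 without T3N4, and from 5550 to 4821 at T30 without T6N2. Those of the liver alternatives are not given here. The member counts alone therefore show no change particular to collagen genes. No paired analysis was possible because each mouse gave 1 library per tissue and the animal codes do not recur between the groups compared. Depth is unknown, so the precision of low genes such as Col6a5 cannot be given.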
